A study of Homo sapiens with 16 samples.

Results

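The genes examined here build, sense, move and export the cell's lipids: 33 genes of cholesterol and fatty acid metabolism among the 26364 genes counted in both cell lines. They were chosen by name, and all 33 had enough counts to be tested in each line, where the filter on low counts left 15787 genes (Ishikawa) and 15594 (T-47D). Bulk RNA-seq covered Ishikawa cells, a human line from an endometrial adenocarcinoma, and T-47D cells, a human line from a ductal carcinoma of the breast. Each line was kept in hormone-depleted medium and then treated with 10 nM 17β-estradiol (E2), the main natural estrogen, for 0 (vehicle), 2, 4 or 8 h. There were 2 replicates at each time point and 16 libraries in all. The question was when, in which direction and in what share these genes changed in each line.

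Cholesterol is made from acetyl-CoA through the mevalonate pathway, which ends in squalene, and then through the sterol ring enzymes. SREBP-1 and SREBP-2, made from SREBF1 and SREBF2, are the transcription factors that switch on lipid synthesis genes. SCAP escorts them to the Golgi for activation when sterols are low, and INSIG1 and INSIG2 hold them back in the endoplasmic reticulum when sterols are high. SREBP-2 is best known for cholesterol genes and SREBP-1c for fatty acid genes. ABCA1 and ABCG1 pump cholesterol out of the cell and are classical targets of the liver X receptors, which sense oxidised sterols. Estrogen acts through the estrogen receptor, a nuclear receptor encoded by ESR1.

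Letters that known regulators bind were searched for in the promoters of these genes, and 3 stretches are printed because their genes differ in role and response. RefSeq promoters, the 250 bases before to 50 bases after each start in GRCh38.p14, were found for 29 of the 33 genes. Those of FDFT1, SQLE, FASN and ABCG1 were not found and were not searched. The stretches printed were matched exactly to GRCh37, once each, and none overlaps an annotated gene on its own strand. Genes on the opposite strand were not checked. ABCA1 (chr9:107690477-107690596, minus strand) fell in both lines, and the capitals mark CACGTG, the core E-box, and a reversed match to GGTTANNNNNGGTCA. That pattern is a variant of the spaced repeat that liver X receptors bind. SREBF2 (chr22:42228949-42229008, plus strand) is printed for the sterol regulatory element read by the SREBPs, with a match to TCACNCCAC and a reversed CCAAT in capitals. MSMO1 (chr4:166248631-166248795, plus strand) rose in both lines, and its capitals mark CCAAT, the box bound by NF-Y, on either strand.
ABCA1: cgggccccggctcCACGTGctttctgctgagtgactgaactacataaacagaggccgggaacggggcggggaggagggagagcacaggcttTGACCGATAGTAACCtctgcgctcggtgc
SREBF2: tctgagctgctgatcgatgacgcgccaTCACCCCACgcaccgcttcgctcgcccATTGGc
MSMO1: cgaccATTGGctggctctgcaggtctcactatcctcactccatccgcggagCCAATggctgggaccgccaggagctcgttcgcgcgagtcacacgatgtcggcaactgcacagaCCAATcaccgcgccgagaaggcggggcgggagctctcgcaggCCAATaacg
On both strands and with overlaps allowed, CCAAT occurred in 18 of the 29 promoters (62.1%), against 34.6% of all 35116 promoters. GGGCGG, the GC box bound by Sp1, occurred in 27 of 29 (93.1%), against 45% of all promoters and 56.3% of those of protein-coding genes. The E-box CACGTG was in 5 (17.2% against 7.26%). TCACNCCAC, the core of the sterol element, was found in SREBF2 alone of the 29 (3.45% against 1.13%). Other forms of the element were not searched for, so the other windows lack only these exact letters. The ABCA1 repeat was in 0.0513% of all promoters, and the plain repeat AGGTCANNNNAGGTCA was in 0 of the 29 and 0.0199% of all. GGTCANNNTGACC, a strict estrogen response element, was in 0 of the 29 windows and in 0.057% of all, which says only that these letters are not in these windows.

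Libraries held 41177912 to 58918642 counts in Ishikawa cells and 41223813 to 64148903 in T-47D cells. Even numbers made up 71.2% to 74.6% of the values from 1 to 10, so 1 count need not be 1 fragment. The known E2 targets PGR, GREB1 and TGFA rose at 8 h in both lines, by 1.65 to 3.75 on the log2 scale in Ishikawa cells and by 1.04 to 2.15 in T-47D cells. The epithelial genes EPCAM, CDH1, KRT8 and KRT18 stood at 204 CPM (counts relative to the TMM-scaled library total) or more in both lines at 0 h. The luminal breast gene GATA3 was at 1184 CPM in T-47D cells and 0.0434 in Ishikawa cells, whereas the endometrial genes PAX8, SOX17, HOXA10 and EMX2 were at 16.5 to 302 CPM in Ishikawa cells and at or near 0 in T-47D cells. TFF1, a classical breast estrogen target, was at 0.662 CPM in T-47D cells and at 0 in Ishikawa cells. XBP1 and ESR1, listed with GATA3 and TFF1 as luminal breast genes, did not mark T-47D cells alone. At 0 h, XBP1 was at 514 CPM in T-47D cells and 126 in Ishikawa cells, and ESR1 was at 164 and 241. Of the markers of other cells, PTPRC and PECAM1 were at or near 0 in both lines, and the collagen genes COL1A1 and COL3A1 were at 264 and 7.20 CPM in Ishikawa cells and at 87.4 and 0.851 in T-47D cells. The Ishikawa libraries labelled 4 h and 8 h were separated by only 2 of 15787 genes (0.0127%), so Ishikawa values are also given with these 4 libraries as 1 late group. In bulk samples, a change in the cells that make an RNA and a change in RNA per cell cannot be told apart.

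Before E2, the lines already differed in their lipid genes (the plot of levels at 0 h). Of the 33 genes, 28 differed at an adjusted p under 0.05 in edgeR's quasi-likelihood F-test, adjusted by Benjamini-Hochberg, with 15 higher in T-47D cells and 13 lower. Of all 17090 genes tested over both lines, 81.9% differed, with 39.5% higher and 42.4% lower in T-47D cells. The fatty acid enzymes were split. FASN, the fatty acid synthase, SCD, the desaturase that makes oleate, ACLY, which supplies acetyl-CoA, and ACACA, which makes malonyl-CoA, were higher in T-47D cells by 0.98 to 1.74 on the log2 scale. FADS1 and FADS2, the desaturases of polyunsaturated fatty acids, had differences (T-47D minus Ishikawa) of -2.02 (standard error 0.05) and -3.05 (0.06). SQLE, the squalene epoxidase, was higher in T-47D cells by 2.20 (0.07) and TM7SF2, a sterol reductase, by 1.94 (0.07). HMGCS1, the synthase that makes HMG-CoA, was lower, at -0.90 (0.05), as was CYP51A1, the lanosterol demethylase, at -0.83 (0.06). SREBF1 was higher in T-47D cells by 0.94 (0.06), and SREBF2 was lower, at -0.14 (0.05, adjusted p = 0.00869). The SREBF2 call was lost without T-47D 0-h replicate 1, where the difference was -0.12.

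Per kilobase of transcript, the highest levels at 0 h in Ishikawa cells were those of FDFT1, the squalene synthase (212 CPM per kilobase), SCD (211) and FADS2 (190). In T-47D cells they were those of SCD (471), FASN (237) and TM7SF2 (199). The sterol exporters were the lowest genes of the set in Ishikawa cells, with ABCA1 at 0.708 and ABCG1 at 0.334 CPM per kilobase. ABCG1 stood at 10.4 in T-47D cells, a difference between the lines of 5.02 on the log2 scale (standard error 0.17, adjusted p = 1.46e-16), while ABCA1 was at 0.761, a difference that did not pass the test (0.17, adjusted p = 0.255). The 0-h difference between the lines also carries any difference between their cultures and libraries, which cannot be told apart from the line.

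**Figure D1:**
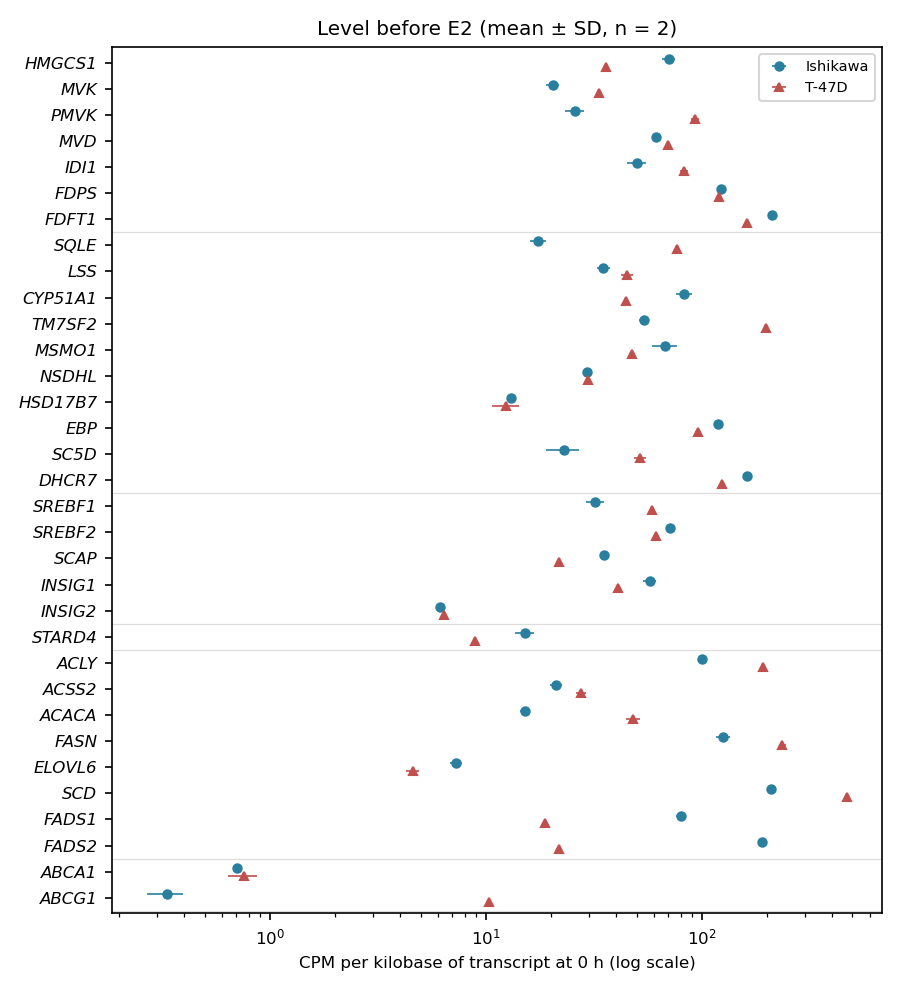
Level of each of the 33 genes at 0 h as CPM per kilobase of transcript (log scale, mean ± SD, n = 2) in Ishikawa cells (circles) and T-47D cells (triangles), grouped by role. ABCG1 (0.334 against 10.4), FADS2 (190 against 21.8) and SQLE (17.5 against 76.9) lie farthest apart between the lines, whereas the ABCA1 points nearly coincide.

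After E2, few of the 33 genes changed early, and more changed by 8 h in T-47D than in Ishikawa cells (the plot of all responses). At 2 h, 3 genes passed the test in Ishikawa cells (9.09%, against 4.35% of all genes tested) and 4 in T-47D cells (12.1% against 9.3%). At 4 h, 3 passed in Ishikawa cells (9.09% against 14.3%) and 9 in T-47D cells (27.3% against 21.5%). At 8 h, the counts were 8 in Ishikawa cells, with 5 up and 3 down (24.2% against 22.1%, of which 12% up and 10.1% down), and 14 in T-47D cells, with 6 up and 8 down (42.4% against 29.7%, of which 15.4% up and 14.3% down). With 4 h and 8 h as 1 late group, 9 genes passed in Ishikawa cells, 5 up and 4 down (27.3% against 25.7%). Over the 3 time points, 9 genes changed at any time in Ishikawa cells (27.3% against 24.3%) and 16 in T-47D cells (48.5% against 34.2%). Most changes were small, and apart from those of ABCA1, ABCG1 and, in T-47D cells, SREBF1, every called change was under 0.4 on the log2 scale. The counts moved with single libraries in both lines. In Ishikawa cells, without 0-h replicate 2 they were 1, 1 and 3 at 2, 4 and 8 h and 2 in the late group, without 0-h replicate 1 they were 6, 8, 10 and 10, and without 2-h replicate 2 the 2 h count was 0 (4 at an unadjusted p under 0.05 by edgeR). With 1 library left out in T-47D cells, the count ranged from 0 (without 2-h replicate 2, with 8 at an unadjusted p under 0.05) to 6 at 2 h, from 3 (without 4-h replicate 1) to 13 at 4 h, the highest values coming without either 8-h library, and from 12 to 15 at 8 h.

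The genes can be ordered by when they first passed the test, as Early (by 2 h) or Late (at 4 h or 8 h only). In Ishikawa cells, IDI1 and INSIG1 were Early Up and ABCA1 was Early Down. ELOVL6, CYP51A1, MSMO1 and SC5D were Late Up, and FADS2 and ABCG1 were Late Down. In T-47D cells, HMGCS1, IDI1 and CYP51A1 were Early Up, and SREBF1 was Early Down. FDFT1, SQLE and MSMO1 were Late Up, all first called at 8 h. MVK, MVD, TM7SF2, SREBF2, FASN, FADS2, ABCA1 and ABCG1 were Late Down from 4 h and INSIG2 from 8 h. All 9 genes called at 4 h in T-47D cells were lower than at 0 h, where 10.4% of all genes were called lower. With RLE scaling in place of TMM the T-47D 4 h calls were 1 up and 8 down, and with DESeq2 they were 3 up and 9 down.

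**Figure D2:**
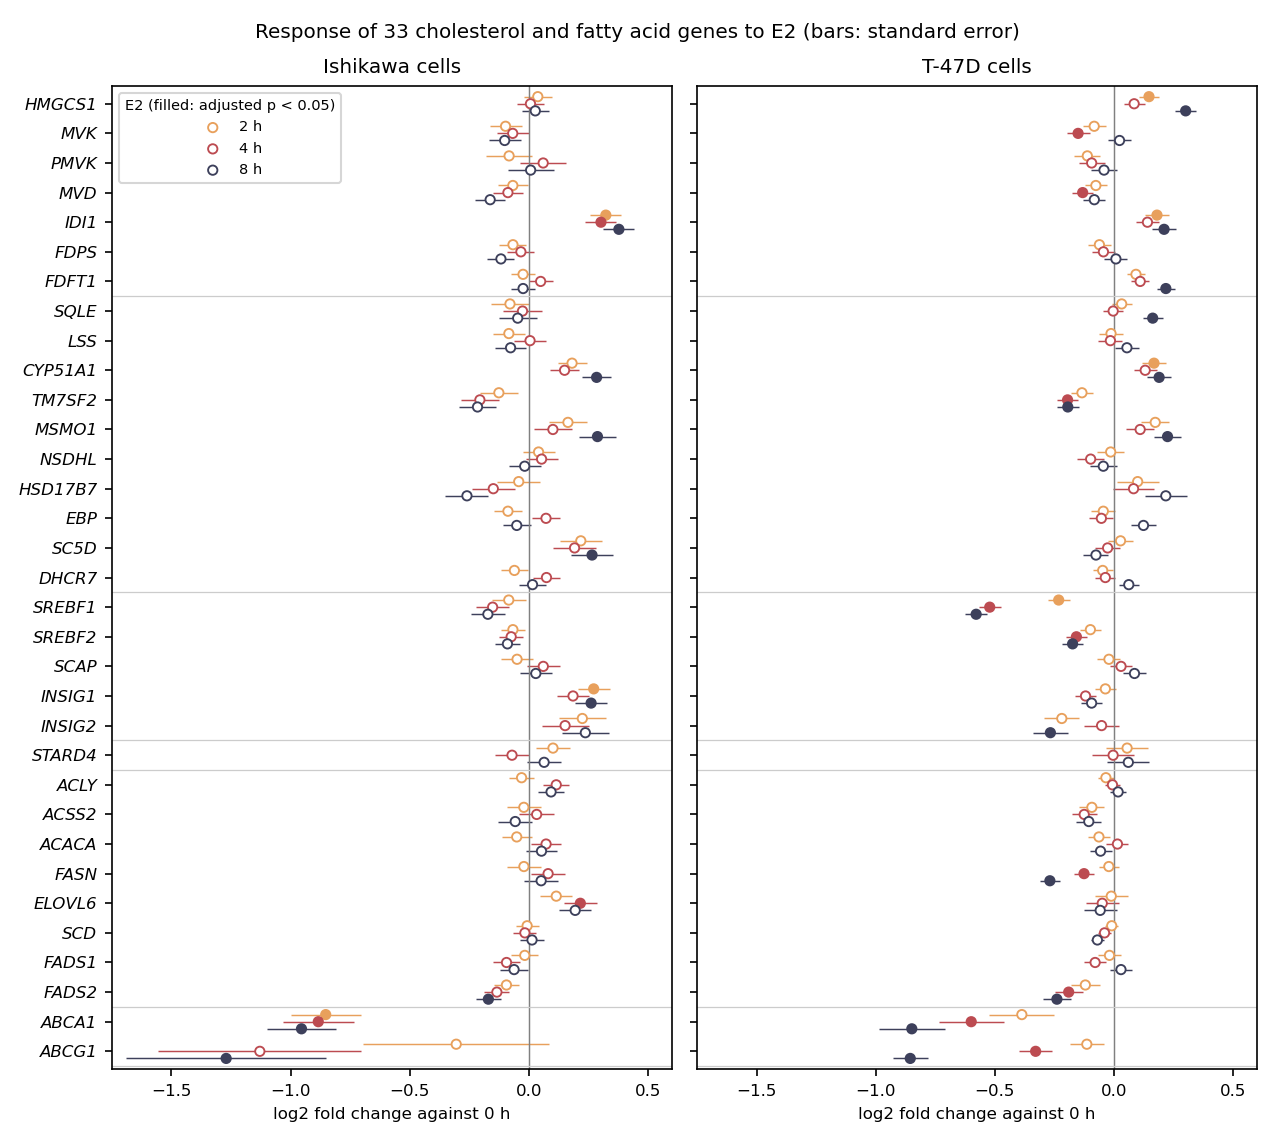
Log2 fold change against 0 h at 2, 4 and 8 h of E2 for the 33 genes in Ishikawa cells (left) and T-47D cells (right). Points are edgeR estimates from 2 replicates per time point, bars are standard errors, filled points passed an adjusted p of 0.05, and grey lines separate the roles. At 8 h, ABCA1 and ABCG1 lie farthest to the left in both lines, and in T-47D cells SREBF1 lies farther left than ABCG1 at 2 h and 4 h.

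At 8 h, the sterol exporters had the most negative values of the set in both lines. ABCA1, which loads cholesterol onto apolipoprotein A-I, stood in Ishikawa cells at 7.32 and 7.43 CPM at 0 h, 4.20 and 3.97 after 2 h, 3.94 and 4.05 after 4 h, and 3.92 and 3.68 after 8 h. Every treated library was below both 0-h libraries, and the mean was at 55.4% of its 0-h value by 2 h and at 51.5% by 8 h. Its log2 fold change was -0.85 at 2 h (standard error 0.15, adjusted p = 0.00197), -0.88 at 4 h and -0.95 at 8 h (0.15, adjusted p = 0.000369). The 2 h call had an adjusted p of 0.0506 without 2-h replicate 2, and the 4 h and 8 h calls held with each library left out in turn. In T-47D cells, ABCA1 was at 8.77 and 7.06 CPM at 0 h, 5.95 and 6.17 after 2 h, 5.53 and 4.91 after 4 h, and 4.72 and 4.08 after 8 h. Here too the groups did not overlap, but the 2 h value did not pass the test (-0.39, standard error 0.14, adjusted p = 0.0891). The log2 fold change was -0.60 at 4 h (adjusted p = 0.00379, and 0.0663 without 0-h replicate 1) and -0.85 at 8 h (adjusted p = 0.000139). The difference between the lines in the ABCA1 response at 2 h was 0.48 (standard error 0.20, adjusted p = 0.355). ABCA1 had 159 to 390 counts in a library. Of the 4 markers of other cells, COL1A1 and COL3A1 also fell in Ishikawa cells, at 8 h by 0.60 and 0.71 on the log2 scale, and COL1A1 fell in T-47D cells by 0.25, while PTPRC and PECAM1 stayed at or near 0. The 4 markers summed to 258 and 284 CPM at 0 h, 222 and 240 after 2 h, 157 and 209 after 4 h, and 189 and 169 after 8 h in Ishikawa cells, and to 70.9 to 91.7 CPM over the T-47D libraries. Their part in the fall of ABCA1 was not tested.

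ABCG1, which passes cholesterol to high-density lipoprotein, fell stepwise in T-47D cells, from 30.7 and 31.1 CPM at 0 h to 29.7 and 27.4 after 2 h, 25.1 and 24.0 after 4 h, and 17.4 and 16.8 after 8 h. From 4 h on, the libraries of each time point lay below all those of the time points before. The log2 fold change was -0.11 at 2 h (not called), -0.33 at 4 h (standard error 0.07, adjusted p = 0.0025) and -0.86 at 8 h (0.07, adjusted p = 7.56e-08). Between 4 h and 8 h it fell by 0.53 (0.07, adjusted p = 0.000521), and these calls held with each library left out in turn. In Ishikawa cells, ABCG1 had only 14 to 52 counts a library, at 1.13 and 0.859 CPM at 0 h and 0.391 and 0.434 after 8 h. The 8 h value of -1.27 (0.42, adjusted p = 0.0407) did not pass with DESeq2 (adjusted p = 0.0776) or without either replicate of 0 h or of 8 h (highest adjusted p 0.171). In the late group, ABCG1 was at -1.20 (adjusted p = 0.0164), also lost without either 0-h replicate.

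**Figure D3:**
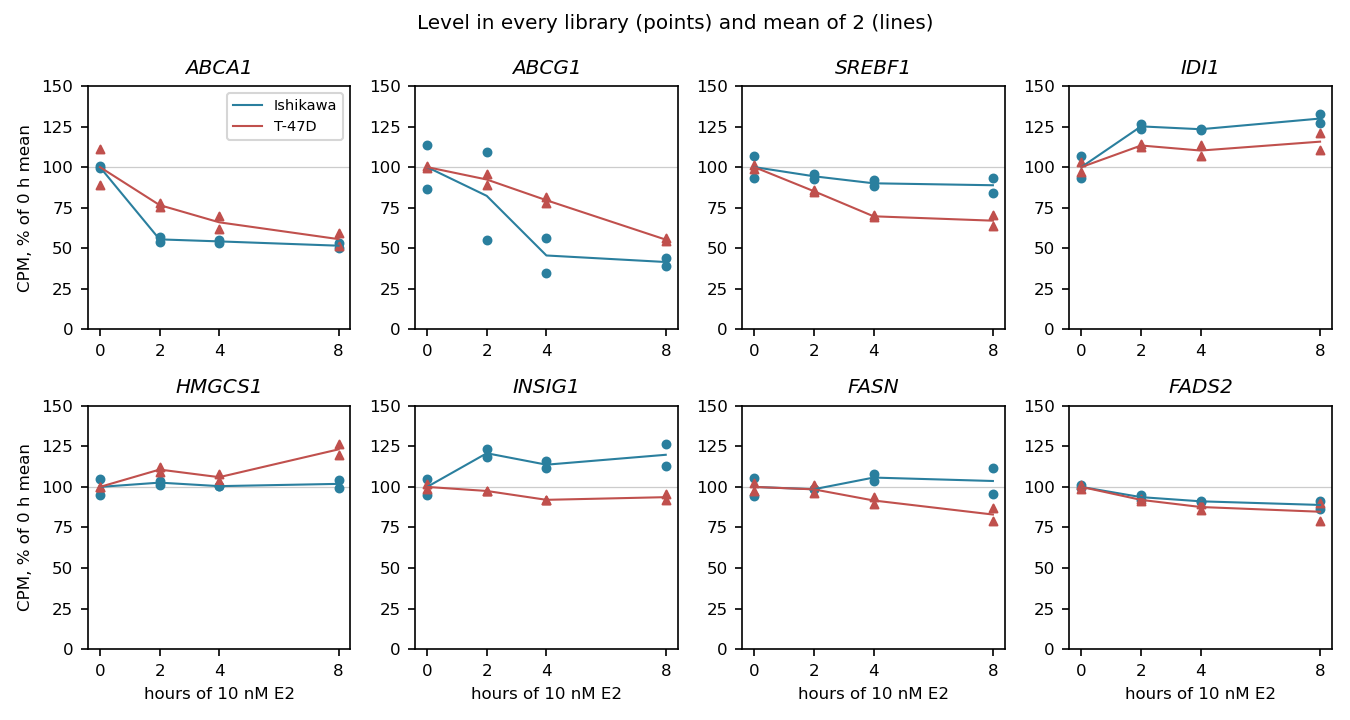
Level of 8 genes in every library as a percent of the line's own 0-h mean CPM, against hours of 10 nM E2, for Ishikawa cells (circles) and T-47D cells (triangles), with lines through the means of 2. ABCA1 reached 55.4% of its 0-h mean by 2 h in Ishikawa cells and 55.6% by 8 h in T-47D cells, and SREBF1 fell to 67.0% in T-47D cells and to 88.8% in Ishikawa cells at 8 h.

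Among the regulators, SREBF1 fell in T-47D cells. It stood at 291 and 285 CPM at 0 h, 247 and 244 after 2 h, 199 and 203 after 4 h, and 203 and 183 after 8 h, so that all treated libraries were lower than both controls. The log2 fold change was -0.23 at 2 h (standard error 0.05, adjusted p = 0.0026), -0.52 at 4 h (0.05, adjusted p = 2.4e-07) and -0.58 at 8 h (0.05, adjusted p = 4.11e-08). It was the 1 gene of the set to change between 2 h and 4 h in T-47D cells (-0.29, 0.05, adjusted p = 0.00121, where 3.4% of all genes changed). Without 2-h replicate 2 the 2 h value had an adjusted p of 0.0616, and the 4 h and 8 h calls held with each library left out. In Ishikawa cells, SREBF1 was at 147 and 168 CPM (0 h) and then 133 and 148 (8 h), and its 8 h value of -0.17 (0.07, adjusted p = 0.0955) was not called by edgeR with the filter on low counts. It passed without that filter (-0.19, adjusted p = 0.0245). In the late Ishikawa group, SREBF1 was at -0.16 (0.06, adjusted p = 0.0537), and it passed with DESeq2 (0.0404), without the filter (0.0115) and with the replicate block (0.0444). The count does not separate the isoforms SREBP-1a and SREBP-1c, and SREBF1 overlaps RAI1 on the opposite strand.

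SREBF2 fell less, and also in T-47D cells, from 317 and 328 CPM at 0 h to 280 and 299 after 4 h and 293 and 279 after 8 h. Its log2 fold change was -0.16 at 4 h (adjusted p = 0.017) and -0.17 at 8 h (0.04, adjusted p = 0.00659). The 4 h call was lost without 0-h replicate 2 or 4-h replicate 1 (highest adjusted p 0.311), and the 8 h call without 0-h replicate 2 or 8-h replicate 2 (0.0657). In Ishikawa cells, SREBF2 ranged from 370 and 377 CPM at 0 h to 348 and 355 after 8 h (-0.09, adjusted p = 0.226). SCAP passed the test at no time point in either line and was at 92.4 and 94.2 CPM at 0 h and 102 and 96.4 after 8 h in T-47D cells.

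The INSIG genes, the retention factors, responded differently in the lines, by the test of the difference given further on. INSIG1 rose in Ishikawa cells from 176 and 159 CPM at 0 h to 207 and 198 after 2 h, 187 and 194 after 4 h, and 212 and 189 after 8 h. Each treated library was above both controls. Its log2 fold change was 0.27 at 2 h (standard error 0.07, adjusted p = 0.0298), 0.19 at 4 h (adjusted p = 0.0784) and 0.26 at 8 h (0.07, adjusted p = 0.0118). The 2 h call was lost without 0-h replicate 2 or either 2-h replicate (highest adjusted p 0.301), and the 8 h call without 0-h replicate 2 or 8-h replicate 1 (0.133). In T-47D cells, INSIG1 was at 118 and 122 CPM at 0 h and 110 and 115 after 8 h (-0.09, adjusted p = 0.132). INSIG2 in T-47D cells was at 23.0 and 22.9 CPM at 0 h, 20.3 and 19.2 after 2 h, 22.3 and 21.9 after 4 h, and 18.8 and 19.4 after 8 h. It was not called at 2 h or 4 h, so the level did not fall steadily. At 8 h it was lower by 0.27 on the log2 scale (standard error 0.07, adjusted p = 0.0106). That call was lost without 8-h replicate 1, where the fold change was -0.24. In Ishikawa cells, it was at 22.6 and 21.3 CPM at 0 h and 27.1 and 24.6 after 8 h (0.24, adjusted p = 0.0959).

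In the mevalonate pathway, IDI1, the isomerase of isopentenyl diphosphate, rose in both lines. In Ishikawa cells it stood at 147 and 128 CPM at 0 h, 170 and 174 after 2 h, 169 and 170 after 4 h, and 182 and 175 after 8 h, with no overlap between treated and control libraries. Its log2 fold change was 0.32 at 2 h (standard error 0.06, adjusted p = 0.00722), 0.30 at 4 h (adjusted p = 0.00568) and 0.38 at 8 h (0.06, adjusted p = 0.000919). In T-47D cells it was at 235 and 220 CPM at 0 h, 259 and 256 after 2 h, 258 and 243 after 4 h, and 251 and 275 after 8 h. It rose by 0.18 at 2 h (adjusted p = 0.0287) and 0.21 at 8 h (0.05, adjusted p = 0.00369), with 0.14 at 4 h (adjusted p = 0.0542). Both 8 h calls held with each library left out. The 2 h calls were lost in Ishikawa cells without 0-h replicate 2 or either 2-h replicate (highest adjusted p 0.112) and in T-47D cells without 0-h replicate 2 or either 2-h replicate (0.188). The 4 h call in Ishikawa cells was lost without 0-h replicate 2 (0.0549). IDI1 overlaps IDI2-AS1 on the opposite strand.

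HMGCS1 rose in T-47D cells, from 193 in both libraries at 0 h to 217 and 210 CPM after 2 h, 209 and 200 after 4 h, and 231 and 244 after 8 h. Its log2 fold change was 0.15 at 2 h (adjusted p = 0.044, lost without any 1 of the 0-h and 2-h libraries, up to 0.28), 0.08 at 4 h (not called) and 0.30 at 8 h (standard error 0.04, adjusted p = 4.28e-05). The level went up again between 4 h and 8 h by 0.22 (0.04, adjusted p = 0.0093, and 0.161 without 4-h replicate 2). In Ishikawa cells, HMGCS1 was at 397 and 360 CPM at 0 h and 395 and 377 after 8 h (0.03, adjusted p = 0.779). FDFT1, which joins farnesyl units into squalene, went from 333 and 325 to 389 and 376 CPM after 8 h in T-47D cells (0.22, standard error 0.04, adjusted p = 0.000323), and stood at 431 and 433 and then 434 and 416 in Ishikawa cells (-0.02, adjusted p = 0.775). MVK, the mevalonate kinase, and MVD, the decarboxylase, fell at 4 h in T-47D cells (-0.15 and -0.13), but both calls were lost when any 1 of 6 libraries was left out (highest adjusted p 0.263 and 0.284), and neither passed at 8 h. PMVK and FDPS passed at no time point in either line, and FDPS shares sequence with pseudogenes, of which FDPSP2 was counted.

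Of the 10 sterol ring enzymes, 3 rose at 8 h in each line (12% of all genes rose in Ishikawa and 15.4% in T-47D cells), and 1 fell in T-47D cells, where 14.3% of all genes fell. MSMO1, the methyl sterol oxidase, went from 166 and 137 CPM at 0 h to 195 and 174 after 8 h in Ishikawa cells (0.29, standard error 0.08, adjusted p = 0.0161) and from 109 and 104 to 116 and 132 in T-47D cells (0.22, 0.06, adjusted p = 0.00639). Its Ishikawa call was lost without 0-h replicate 2 or 8-h replicate 1 (highest adjusted p 0.189), and its T-47D call without 8-h replicate 2 (0.0846). CYP51A1 went from 278 and 246 to 321 and 317 CPM in Ishikawa cells (0.28, 0.06, adjusted p = 0.00405) and from 141 and 140 to 153 and 167 in T-47D cells (0.19, 0.05, adjusted p = 0.00678, and 0.0545 without 8-h replicate 2). At 2 h, CYP51A1 was at 158 CPM in both T-47D libraries (0.17, 0.05, adjusted p = 0.039), a call lost when any 1 of the 0-h and 2-h libraries was left out (highest adjusted p 0.169) and with the replicate block (0.0554). In the late Ishikawa group, CYP51A1 was at 0.22 (adjusted p = 0.0125, and 0.236 without 0-h replicate 2), and MSMO1 at 0.20 was not called (adjusted p = 0.0727). SC5D, the sterol desaturase, was at 178 and 139 CPM at 0 h and 200 and 180 after 8 h in Ishikawa cells, a call (0.27, adjusted p = 0.0441) that was 0.10 without 0-h replicate 2. SQLE, a rate-setting step after squalene, went from 226 and 229 to 251 and 259 CPM after 8 h in T-47D cells (0.16, 0.04, adjusted p = 0.00627), and that call held with each library left out.

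TM7SF2 was lower in T-47D cells, at 309 and 318 CPM at 0 h, 270 and 277 after 4 h, and 287 and 261 after 8 h. Its log2 fold change was -0.20 at 4 h (0.05, adjusted p = 0.00486, and 0.088 without 4-h replicate 1) and -0.19 at 8 h (adjusted p = 0.00339, and 0.0577 without 8-h replicate 2). In Ishikawa cells the late value was -0.21 (0.07, adjusted p = 0.0277), lost without 0-h replicate 2, 4-h replicate 1 or 8-h replicate 2 (highest adjusted p 0.268). TM7SF2 overlaps VPS51 on the same strand, and CYP51A1 overlaps AKAP9 on the opposite one. LSS, NSDHL, EBP and DHCR7 passed at no time point in either line. HSD17B7 was also not called within a line, at -0.26 in Ishikawa cells (adjusted p = 0.0515) and 0.22 in T-47D cells (adjusted p = 0.0721) at 8 h. STARD4, which carries cholesterol through the cytosol, was at 75.2 and 65.6 CPM at 0 h and 72.5 and 74.7 after 8 h in Ishikawa cells and was called at no time point in either line.

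Among the 8 fatty acid genes, FASN fell in T-47D cells, from 1954 and 2056 CPM at 0 h to 1926 and 2024 after 2 h, 1797 and 1878 after 4 h, and 1738 and 1589 after 8 h. The 4 h and 8 h libraries lay below those of 0 h and 2 h. The log2 fold change was -0.13 at 4 h (adjusted p = 0.0349, lost without 0-h replicate 2, either 2-h replicate or 4-h replicate 1, up to 0.333) and -0.27 at 8 h (standard error 0.04, adjusted p = 6.25e-05). In Ishikawa cells, FASN was at 1010 and 1128 CPM at 0 h and 1020 and 1196 after 8 h (0.05, adjusted p = 0.644). FADS2, the delta-6 desaturase, fell in both lines at 8 h, from 581 and 591 to 536 and 506 CPM in Ishikawa cells (-0.17, 0.05, adjusted p = 0.0291) and from 68.3 and 66.4 to 60.8 and 53.3 in T-47D cells (-0.24, 0.06, adjusted p = 0.00528). The T-47D call was lost without 8-h replicate 2 (adjusted p = 0.0964), and the Ishikawa call without 0-h replicate 2, 8-h replicate 2 or either 2-h replicate (highest 0.194). The FADS2 call at 4 h in T-47D cells was lost without any 1 of 6 libraries. With 1 library left out, that fold change ranged from -0.22 to -0.16 on the log2 scale. FADS2 overlaps FADS1 on the opposite strand and FEN1 on its own.

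ELOVL6, which lengthens palmitate, was called in Ishikawa cells at 4 h, at 50.0 and 45.6 CPM at 0 h and 56.1 and 55.0 after 4 h (0.22, 0.07, adjusted p = 0.0468), a call lost when any 1 of 7 libraries was left out (highest adjusted p 0.236). In the late group it was at 0.21 (0.06, adjusted p = 0.0159, and 0.207 without 0-h replicate 2). SCD, the most abundant gene of the set per length in T-47D cells, had 2472 and 2466 CPM at 0 h, then 2360 and 2344 after 8 h, and was not called in either line. ACLY, ACSS2, ACACA and FADS1 were also called at no time point in either line. Summed over the 8 genes, the fatty acid level in T-47D cells was 5959 and 6127 CPM at 0 h and 5666 and 5456 after 8 h. The sum over the 17 cholesterol enzymes was 3117 and 3092 CPM at 0 h and 3276 and 3268 after 8 h. In Ishikawa cells these sums were 3743 and 3858 against 3769 and 3848, and 2874 and 2791 against 2989 and 2891. These sums weigh the abundant genes most and were not tested.

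Counted by role at 8 h in T-47D cells, where 15.4% of all genes rose and 14.3% fell with a median log2 fold change of 0.00, 6 of the 17 enzymes of the mevalonate and sterol ring groups rose and 1 fell (median 0.06). Of the 8 fatty acid genes, 2 fell, FASN and FADS2 (median -0.06), and of the 5 SREBP genes 3 fell, SREBF1, SREBF2 and INSIG2 (median -0.17). These are counts of few genes, and no difference between the roles was tested. In Ishikawa cells at 8 h, 4 of the 17 enzymes rose, where 12% of all genes did. Whether called or not, 12 of the 17 had a positive value in T-47D cells (7868 of all 15594 genes did) and 7 in Ishikawa cells (7659 of 15787). From 2 h to 4 h in T-47D cells, 13 of the 17 enzymes had a negative value (7760 of all 15594 genes did). Between 4 h and 8 h, 16 of the 17 had a positive value (7826 of all 15594 genes did). Both comparisons share the 4 h libraries. From 4 h to 8 h the test called only 2 of the enzymes, HMGCS1 and SQLE, with ABCG1 the 1 other member called (3 of 33, against 3.42% of all genes). The SQLE call was lost without any 1 of 5 libraries (highest adjusted p 0.245).

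Between the lines, 6 genes were called at 8 h in both, IDI1, CYP51A1 and MSMO1 higher and FADS2, ABCA1 and ABCG1 lower, and each had the same sign in both. This was 6 of 33 (18.2%), against 11.2% of the 14307 genes tested in both lines, among which 1411 of 1609 shared a sign. The difference in response itself was tested over all 16 libraries, as an interaction of line with time. At 2 h, 0 of the 33 genes passed with edgeR (2.67% of all genes did), 4 had an unadjusted p under 0.05, and DESeq2 called 2. At 4 h, 2 passed (6.06% against 6.03%), SREBF1 and INSIG1. At 8 h, 7 passed (21.2% against 10%, of which 5.32% more positive and 4.7% more negative in T-47D cells), with HMGCS1, FDFT1 and HSD17B7 more positive in T-47D cells and SREBF1, INSIG1, INSIG2 and FASN more negative.

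The SREBF1 response at 8 h was lower in T-47D than in Ishikawa cells by 0.41 on the log2 scale (difference -0.41, standard error 0.09, adjusted p = 0.00388). For INSIG1 the difference was -0.36 (0.08, adjusted p = 0.00824) and for INSIG2 it was -0.51 (0.13, adjusted p = 0.0119). These 3 differences passed with each library left out in turn, whereas those of HSD17B7, FASN, HMGCS1 and FDFT1 were each lost without 1 of 4 to 6 libraries. HSD17B7, a ketosteroid reductase of sterol synthesis, had a difference of 0.47 (0.13, adjusted p = 0.025) on levels of 15.6 to 22.4 CPM. Its near copy HSD17B7P2 was also counted, so its reads are uncertain.

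**Figure D4:**
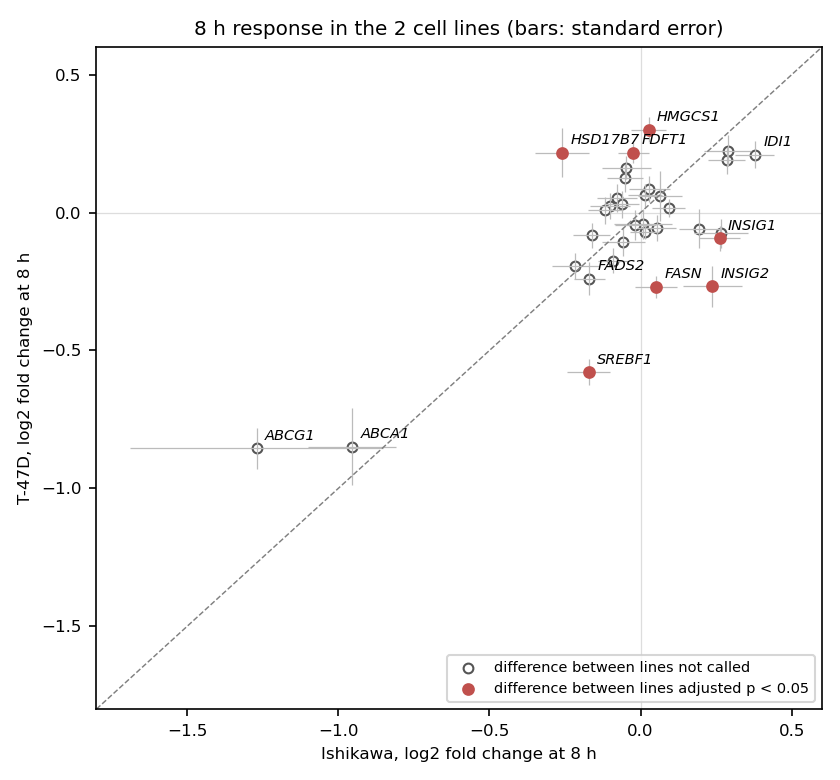
Log2 fold change at 8 h in T-47D cells (vertical) against Ishikawa cells (horizontal) for the 33 genes, with standard errors and a dashed line of equal response. Filled points are the 7 genes whose difference between the lines passed an adjusted p of 0.05, and SREBF1, INSIG1, INSIG2 and FASN lie below the line.

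Genes next to these in the pathway were taken from a list of 19 other sterol genes and 18 other fatty acid genes. In T-47D cells at 8 h, 8 of the 19 sterol genes rose and 4 fell (63.2% called, against 29.7% of all genes, 15.4% up and 14.3% down). TMEM97, a sterol-responsive membrane protein, rose from 95.4 and 95.9 to 134 and 137 CPM (0.50, 0.05, adjusted p = 1.52e-07). ERLIN1, a protein of the endoplasmic reticulum that binds cholesterol, rose by 0.34. MYLIP, a ligase for lipoprotein receptors and a liver X receptor target, fell (-0.40, 0.09, adjusted p = 0.00205), as did NR1H2, which encodes liver X receptor beta (-0.26, 0.06, adjusted p = 0.00223). In Ishikawa cells at 8 h, 3 of the 19 rose (15.8%, against 12% of all genes), TMEM97 (0.23), LBR (0.23) and RNF139 (0.34).

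Of the 17 other fatty acid genes tested in T-47D cells at 8 h, 1 rose and 3 fell (23.5% called, against 29.7% of all genes). CPT1A, which brings fatty acids into mitochondria, fell from 401 and 387 to 320 and 305 CPM (-0.33, 0.04, adjusted p = 6.15e-06). LPIN1, a phosphatidate phosphatase, was at -0.35 (0.08, adjusted p = 0.00148), and ACSL1, which activates fatty acids, at -0.25 (0.04, adjusted p = 0.00024). In Ishikawa cells, 5 of 17 rose and 1 fell (35.3% called, against 22.1% of all genes), led by ELOVL7, an elongase (0.40, 0.08, adjusted p = 0.00259), and GPAM, the first acyltransferase of glycerolipid synthesis (0.32, 0.06, adjusted p = 0.00203), with ACACB at -0.28. Of the 18 genes, 5 (27.8%, against 10% of all genes called and 4.7% called negative), LPIN1, ACSL1, ELOVL5, CPT1A and GPAM, had a more negative response at 8 h in T-47D than in Ishikawa cells by the interaction test, with differences from -0.32 to -0.50.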

How the data were processed

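Reads were mapped by the authors to hg19 with HISAT2, converted with SAMtools, and assigned to UCSC Known Genes with featureCounts. The deposited values are raw counts per gene, 1 table per line. Versions, strand setting and the handling of read pairs and multiply mapped reads are not given in the sources used here. Libraries came from poly(A) RNA with a directional kit. Samples were grouped by labelled line and time point, and 0 columns of per-sample values went unmapped.

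Counts were filtered with filterByExpr, TMM-scaled and fitted per line with time as a factor and no replicate block, in R 4.3.3 with edgeR 4.0.16. The quasi-likelihood F-test was adjusted over all genes tested (Benjamini-Hochberg, threshold 0.05). A prior count of 2 was set only for the log2 levels used in the correlations of deviations below. Each standard error is the size of the fold change (log2) over the square root of F. Biological coefficients of variation were 6.45% (Ishikawa), 5.02% (T-47D) and 5.82% (all 16 libraries together). The fit of all libraries gave the differences between lines. Nothing says that replicates were separate cultures, so p-values measure the spread between these samples, which may be technical. Replicates differed beyond sampling noise (chi-square per gene 3.60 to 10.8), and none held identical values. Deviations of same-numbered samples correlated at -0.115 to 0.0533 in Ishikawa and -0.0547 to 0.0595 in T-47D cells, so numbers were not used as pairs.

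All 33 genes could be named. Values per library were planned for those with the largest called changes or differences between lines and for SREBF1, SREBF2, INSIG1 and ABCA1, and further genes' values were added after they were seen. The genes and lists were chosen with earlier results of these data known. Positions and lengths came from GENCODE on GRCh37, promoters from RefSeq on GRCh38.p14. The scripts were tested on simulated data, with 200 genes per line changed by 1 on the log2 scale at 8 h. Of these, 75.5% (Ishikawa) and 83% (T-47D) were called. Genes that were not changed made up 6.79% and 8.29% of the calls. Smaller changes were not simulated. Alternatives were DESeq2 1.42.0, RLE scaling, no filter, a replicate block and leaving out each library.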

Additional observations from a re-analysis of the deposited data

Results flagged for a closer look

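The responses of 7 genes differed between the cell lines by the interaction test of edgeR, as T-47D minus Ishikawa on the log2 scale with both lines' own fold changes against 0 h beside each. At 4 h, SREBF1 differed by -0.36 (adjusted p = 0.0159, at -0.52 in T-47D and -0.15 in Ishikawa cells) and INSIG1 by -0.29 (adjusted p = 0.0446, at -0.12 and 0.19). At 8 h, SREBF1 differed by -0.41 (adjusted p = 0.00388, at -0.58 and -0.17), INSIG1 by -0.36 (adjusted p = 0.00824, at -0.09 and 0.26) and INSIG2 by -0.51 (adjusted p = 0.0119, at -0.27 and 0.24). FASN differed by -0.32 (adjusted p = 0.0241, at -0.27 and 0.05). HMGCS1 differed by 0.27 (adjusted p = 0.022, at 0.30 and 0.03), FDFT1 by 0.24 (adjusted p = 0.017, at 0.22 and -0.02) and HSD17B7 by 0.47 (adjusted p = 0.025, at 0.22 and -0.26).

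With 1 library left out at a time, the 8 h difference ranged from -0.51 to -0.34 for SREBF1, from -0.47 to -0.28 for INSIG1 and from -0.61 to -0.46 for INSIG2. The 4 h difference of INSIG1 was lost without any 1 of 9 libraries and that of SREBF1 without any 1 of 3, Ishikawa 0-h replicate 1, T-47D 0-h replicate 1 and T-47D 4-h replicate 1 (highest adjusted p 0.0653). Groups of 2 samples were too small to look for single samples far from the others.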

How the results depend on the processing

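Another setting moved few counts by over 1.5 times. Without a filter on low counts, 6 genes were called at 4 h in Ishikawa cells (3 in the report), 2 from 2 h to 4 h in T-47D cells (1), 6 from 4 h to 8 h (3) and 2 for the difference between lines at 2 h (0). DESeq2 gave 6 from 4 h to 8 h and 2 for that difference, and RLE scaling gave 1 for it. With the replicate block, 2 genes were called at 2 h in T-47D cells (4 without it), where HMGCS1 and CYP51A1 both had an adjusted p of 0.0554, and MVD at 4 h (0.0569) and ELOVL6 at 4 h in Ishikawa cells (0.0528) were also lost, while SREBF1 in the late Ishikawa group was gained (0.0444). The block was not run for the lines at 0 h, since each number lies within 1 line. RLE scaling also lost MVD (0.054), and no filter lost MVD (0.078) and ELOVL6 (0.0569). In 392 fold changes with 1 such choice changed, 379 kept their sign and side of the threshold, 8 were lost, 5 were gained and 0 changed sign. The causes were not tested.

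With 1 library left out, the calls ranged in Ishikawa cells from 0 to 6 at 2 h, 1 to 8 at 4 h, 3 to 10 at 8 h and 2 to 10 in the late group. In T-47D cells they ranged from 0 to 6 at 2 h, 3 to 13 at 4 h, 12 to 15 at 8 h, 1 to 1 from 2 h to 4 h and 1 to 5 from 4 h to 8 h. For the difference between lines they ranged from 0 to 2 at 2 h, 0 to 3 at 4 h, 3 to 8 at 8 h and 27 to 28 at 0 h. The 2 h count was 0 in Ishikawa cells without 2-h replicate 2 (4 at an unadjusted p under 0.05) and 0 in T-47D cells without 2-h replicate 2 (8), and the T-47D 4 h count was 3 without 4-h replicate 1. Of 1136 such fold changes, 998 kept their call, 129 were lost, 8 were gained and 1 changed sign, SREBF1 at 2 h in Ishikawa cells, which ranged from -0.18 without 0-h replicate 1 to 0.0168 without 0-h replicate 2.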
